A study of Mus musculus with 75 samples.

Results

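Chemokines are small secreted proteins that steer leukocytes through tissue, and the genes for their ligands and receptors were examined in lungs of mice given bleomycin. The members were all protein-coding genes of the count table whose Ensembl release 96 symbol starts with Ccl, Cxcl, Ccr or Cxcr followed by a digit, together with Cx3cl1, Cx3cr1, Xcl1 and Xcr1. This gave 63 of 55536 genes (22028 of them protein-coding), of which 44 encode ligands and 19 receptors. RNA from the inferior lobe was sequenced in 75 male C57BL/6JRj mice, 1 library per mouse, aged 12 to 14 weeks at instillation. The BLEO-IPF mice had received bleomycin sulphate once into the trachea and were killed on day 7 (10 mice), days 14, 21, 28 and 35 (12 mice each) or day 42 (7 mice). The 10 control mice (CTRL) are saline mice in the labels of the samples and untreated mice in the treatment protocol, and they have no sampling day of their own. Bleomycin is a cancer drug that damages alveolar epithelial cells and leads to scarring. The treated mice entered a group only after losing 5 to 17% of body weight by day 6. Lungs were lavaged with saline before the lobe was taken, so cells free in the airspaces may be thinned out in these libraries.

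Ligands are made by resident cells and leukocytes, are held on the matrix and on endothelium, and bind G protein-coupled receptors on the cells that follow them. Many ligands share a receptor and many receptors share ligands, so the genes are ordered below by the leukocyte that each one is best known to recruit. CXCR2 ligands draw neutrophils, CCR2 and CX3CR1 ligands draw monocytes, CXCR3 ligands draw activated T and NK cells, CCR4 ligands draw Th2 and regulatory T cells, and CXCR5 and CCR7 ligands arrange lymphoid tissue. In the injured lung this system is known for the early entry of neutrophils and monocytes and for the later arrival of lymphocytes. In bulk tissue, fewer cells of a type and less RNA per cell cannot be told apart.

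Expression levels are counts per 1000000 counts of the library (CPM) after TMM scaling. A range is followed by the median of the group in parentheses. A log2FC is the difference of fitted log2 group means with its standard error. An edgeR adjusted p comes from the quasi-likelihood F test with Benjamini-Hochberg adjustment over all 16221 genes tested, at a threshold of 0.05. "Rose" and "fell" are used of genes past that threshold. All 6 comparisons with CTRL share the same 10 control mice. Total counts per library ranged from 9240291 to 14665247.

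Several libraries stood apart. Day 28 replicate 10 carried a summed CPM of skeletal muscle markers at the top of the range of 2.79 to 1590.1 (5.08) on that day, against 3.596 to 7.31 (6.29) in CTRL mice, and also the highest day 28 sums of B cell markers and of lymph node and follicle markers. Day 14 replicate 8 held the highest neutrophil marker sum, 577 CPM, on a day with a median of 77.7. Day 14 replicate 11, day 35 replicate 12 and day 42 replicate 7 were far above all other mice in Ccl28. Day 42 replicate 7 also lay above the other 6 mice of its group in 16 of the 49 tested members. Calls that were lost without these libraries are named beside the genes. Of 3 tested thymus markers, 0 rose on any day and 2, 3, 2, 1, 3 and 2 fell on the 6 days from day 7 to day 42 (Rag1 by a log2FC of -5.01 ± 0.99, edgeR adjusted p = 1.33e-05, on day 14). Their summed CPM was 14.4 to 64.7 (25.6) in CTRL mice, highest in CTRL replicate 9, and 7.29 to 19.7 (13.7) on day 14.

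Of the 63 members, 49 passed the filter on low counts (32 ligands and 17 receptors). The other 14 stayed untested: 8 had 0 counts in all 75 mice, all of them further copies of Ccl19, Ccl21 or Ccl27, and 6 had a few counts. Ccr3, the eotaxin receptor of eosinophils, reached at most 18 counts in a mouse, and Ccl1, a ligand of CCR8, at most 9. The 6 gene entries for Ccl21, the ligand that brings naive T cells and dendritic cells to CCR7, held 8 counts in all. These entries are nearly identical in sequence and how reads with several places were counted is not given in the sources used here, so their level is uncertain. Cxcl11 is annotated as a polymorphic pseudogene and falls outside the rule, with at most 3 counts in any mouse.

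The tested members rose far more often than they fell. On day 7, 30 of 49 rose and 3 fell, where over all tested genes 24.8% were higher and 21% lower. On day 14, 31 rose and 5 fell, against a background of 32.4% and 29.9%. The counts were 31 and 3 on day 21 (background 28.3% and 25.8%) and 32 and 2 on day 28 (background 24.1% and 19.2%). They were 31 and 2 on day 35 (background 16.9% and 13.1%) and 25 and 1 on day 42 (background 13.7% and 11%). The number of members that rose thus changed little from day 7 to day 35. Over the same days the background share of higher genes went up to 32.4% on day 14 and then down to 16.9% on day 35. The median log2FC of the tested members was 0.95, 0.91, 0.85, 0.80, 0.96 and 0.72 on the 6 days from day 7 to day 42, where the median of all tested genes was at most 0.02 on any day. Ligands accounted for most rises, with 23 of 32 up on days 7, 14 and 21 and 19 on day 42. Of 17 receptors, 7 rose on day 7, 11 on day 35 and 6 on day 42. Without the 3 mice highest in Ccl28, 34 of the 36 calls of day 14, 31 of 33 of day 35 and 22 of 26 of day 42 were kept. Without CTRL replicate 9, 32 of 33, 34 of 36, 33 of 34, 33 of 34, 30 of 33 and 26 of 26 calls were kept on the 6 days. Leaving out day 28 replicate 10 ended 1 call (Ccl11 on day 28), and leaving out day 14 replicate 8 ended 0.

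A rise of at least 1 on the log2 scale was found in 22, 23, 22, 22, 21 and 18 members on the 6 days from day 7 to day 42, where 5.1, 8.32, 6.89, 6.67, 4.35 and 3.09% of all genes had one. Every BLEO-IPF mouse lay above every CTRL mouse in 18, 12, 11, 4, 8 and 8 members on these days, where this held for 7.39, 9.46, 6.84, 2.1, 2.43 and 4.22% of all genes. Ccl6, Ccl9 and Ccr1 were among the members apart on day 28. Every BLEO-IPF mouse lay below every CTRL mouse in 1, 1, 2, 0, 1 and 0 members, where this held for 3.8, 6.15, 4.85, 1.34, 1.34 and 3.37% of all genes. Cx3cl1 was the member in question on days 7, 14, 21 and 35, joined by Cxcr4 on day 21. Of the 49, 19 rose on all 6 days and 13 on none. In the reported fit no member rose on one day and fell on another. How often these records occur over all tested genes was not counted, and the 6 comparisons share their CTRL mice. Among the 36 that rose on some day, the largest log2FC belonged to day 14 for 14 genes, to day 7 for 7 and to day 42 for 6. The other days accounted for 5 (day 35), 3 (day 21) and 1 (day 28). The day of the largest log2FC was not counted over all tested genes. Day 14 also had the largest share of all genes called higher (32.4%). The heat map shows the log2FC of each member by day within its target class.

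**Figure D1:**
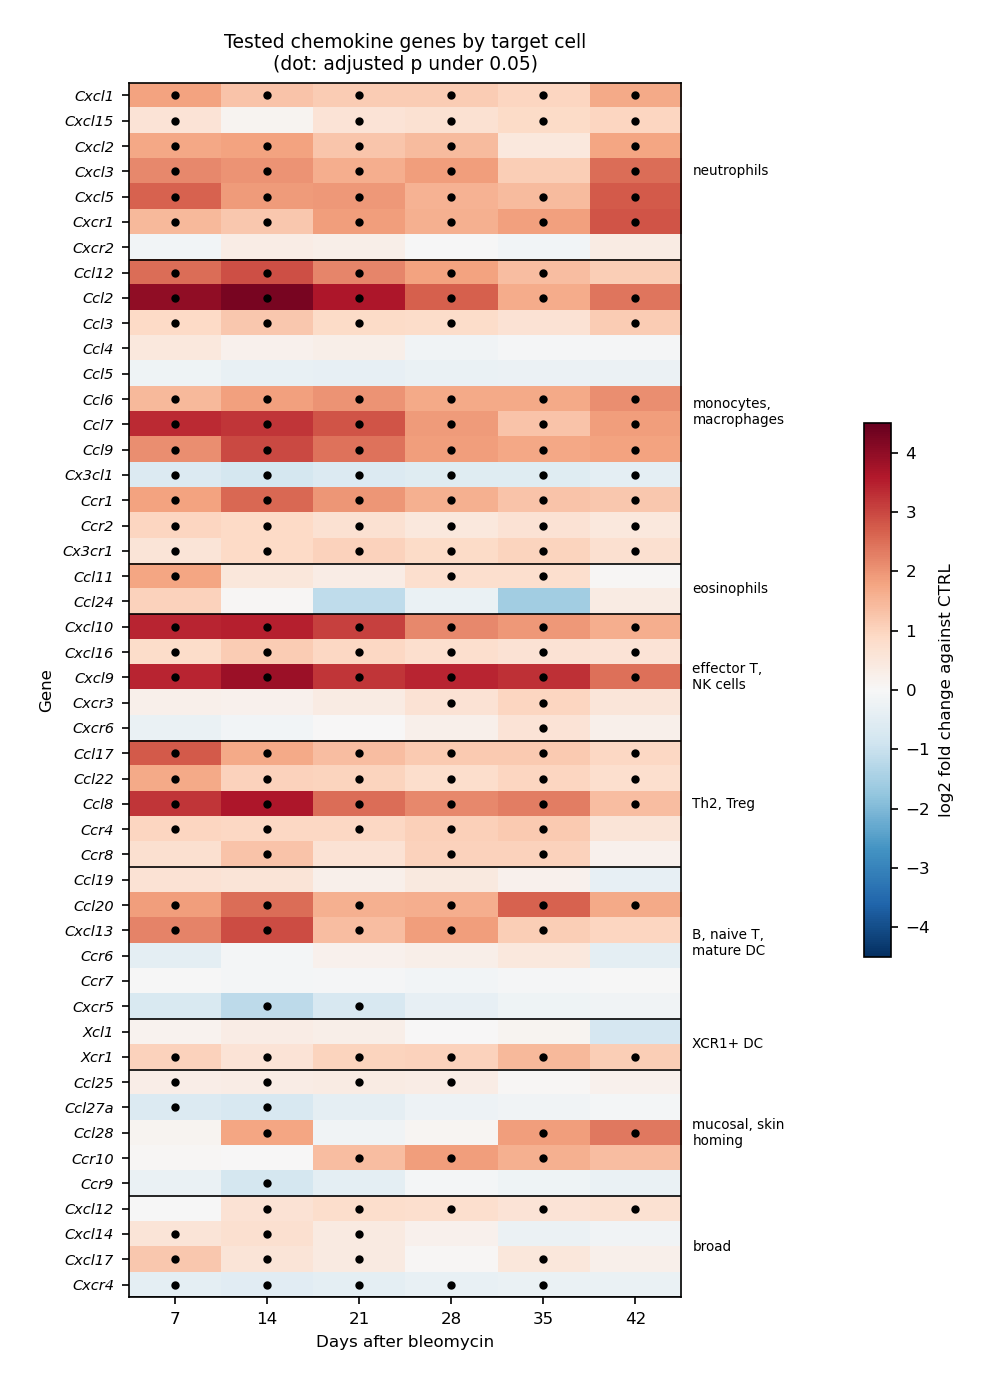
Fitted log2FC against CTRL of 48 tested chemokine genes (rows, grouped by target cell) on each day after bleomycin (columns), with a dot for an adjusted p under 0.05. Most rows of the monocyte, neutrophil and Th2 groups show called rises from day 7 on. Exceptions are Ccl4, Ccl5, Cxcr2, Ccr8 and the falling Cx3cl1. Called falls are seen in Cx3cl1, Cxcr4, Cxcr5, Ccl27a and Ccr9.

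Levels per length put these changes in proportion, since CPM favours long transcripts. In CTRL mice the ligand with the highest median CPM per kb of exon was Cxcl15 (lungkine, secreted by lung epithelium), at 439 CPM per kb, followed by Cxcl14 at 90.5 and Ccl6 at 57.8. The inducible neutrophil ligand Cxcl3 came last of the 32, at 0.03305 CPM per kb. By day 42 the order had Ccl6 second at 239 CPM per kb, behind Cxcl15 at 821. Cxcr4 was the highest receptor in CTRL mice, at 35.9 CPM per kb. The summed CPM of the tested ligands was 1289 to 1993 (1763) in CTRL mice, 2222 to 3108 (2631) on day 7, 2218 to 3094 (2622) on day 14 and 2566 to 3397 (3160.1) on day 42. The lowest of the day 7, day 14 and day 42 mice lay above the highest CTRL mouse in that sum. Cxcl15 alone made up 52.8% of it in the median CTRL mouse and 40.1% in the median day 14 mouse. Strongly induced ligands such as Ccl2 and Cxcl9 remained small beside it at every time.

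**Figure D2:**
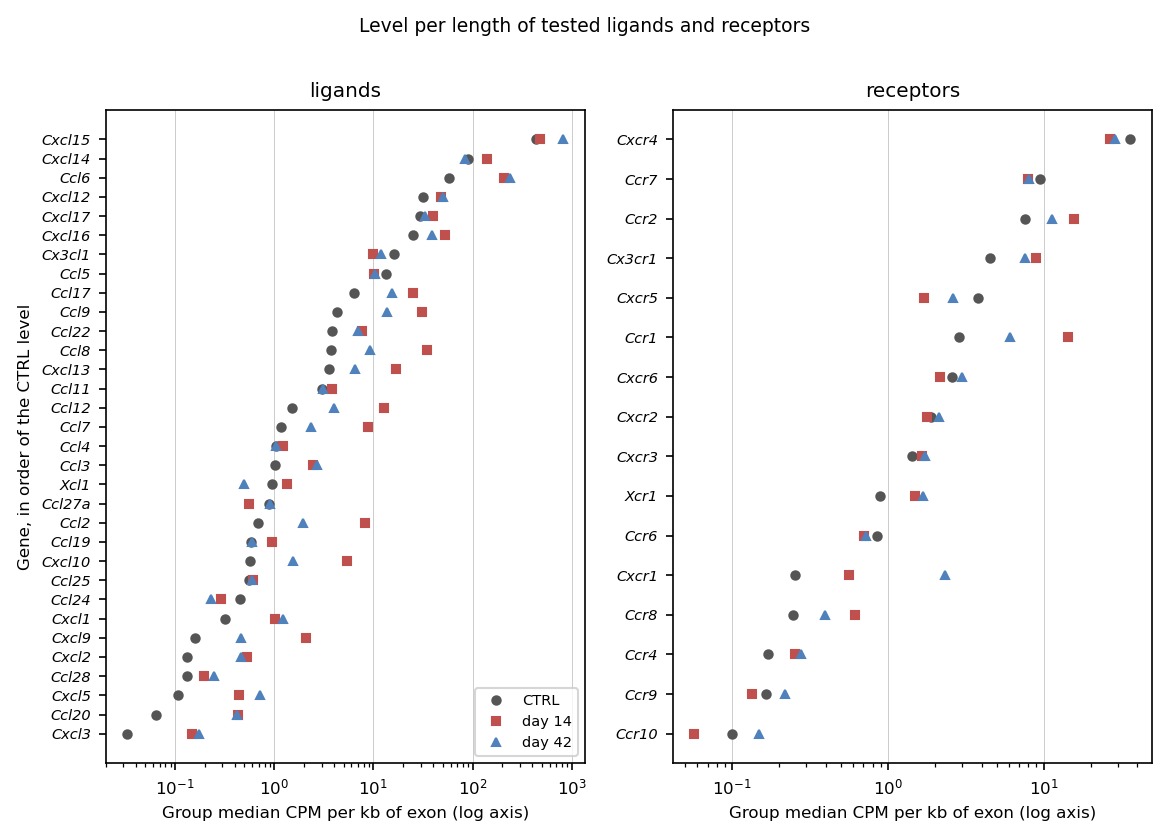
Median CPM per kb of exon of the tested ligands (left) and receptors (right) in CTRL, day 14 and day 42 mice, on logarithmic axes and in order of the CTRL level. Cxcl15 lies at the top of the ligands, from 439 in CTRL mice to 821 on day 42, and Cxcl3, Ccl20 and Cxcl5 lie at the bottom in CTRL mice.

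Genes that act on neutrophils numbered 7, all tested: 5 ligands and the receptors Cxcr1 and Cxcr2. Of these, 6 rose on day 7, 5 on day 14, 6 on days 21, 28 and 42, and 4 on day 35, and none fell. The ligands lie side by side on chromosome 5 (GRCm38, 90759360 to 90905938) in the order Cxcl5, Cxcl3, Cxcl15, Cxcl1, Cxcl2. The 250 bases before the start of Cxcl1, Cxcl2 and Cxcl3 are printed here because all 3 genes rose together from very low levels and each window holds an NF-kB motif (GGG, any 2 bases, TTTCC), searched on both strands and set in capitals. The windows come from RefSeq on GRCm38.p6 and lie on the plus strand at chr5:90890995-90891244 for Cxcl1, chr5:90903649-90903898 for Cxcl2 and chr5:90785851-90786100 for Cxcl3. The motif starts 89 and 71 bases before the start of Cxcl1, 97 and 78 before Cxcl2 and 73 before Cxcl3, and no site overlaps one of the other motifs searched.
Cxcl1: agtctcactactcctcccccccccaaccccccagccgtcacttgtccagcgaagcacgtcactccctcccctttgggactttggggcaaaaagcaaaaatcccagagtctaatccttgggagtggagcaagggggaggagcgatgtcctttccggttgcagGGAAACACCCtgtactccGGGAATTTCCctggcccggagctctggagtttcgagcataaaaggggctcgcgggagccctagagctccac
Cxcl2: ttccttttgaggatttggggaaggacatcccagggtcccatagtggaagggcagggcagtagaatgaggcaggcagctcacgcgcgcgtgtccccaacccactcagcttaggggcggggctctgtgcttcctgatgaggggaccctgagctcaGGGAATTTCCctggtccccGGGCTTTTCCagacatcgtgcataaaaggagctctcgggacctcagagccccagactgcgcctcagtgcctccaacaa
Cxcl3: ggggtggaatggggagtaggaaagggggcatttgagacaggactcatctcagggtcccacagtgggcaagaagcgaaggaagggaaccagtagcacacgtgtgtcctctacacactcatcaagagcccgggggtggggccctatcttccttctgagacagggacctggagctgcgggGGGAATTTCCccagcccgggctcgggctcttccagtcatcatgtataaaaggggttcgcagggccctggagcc

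Among the 42 member symbols with a promoter entry, 6 hold this motif (14.3%: Ccl20, Ccl9, Ccr3, Cxcl1, Cxcl2 and Cxcl3), and 1.65% of the 27025 symbols in the table do. Counts for the other motifs searched on both strands were 3 of 42 members for the interferon response element (TTTC, any 2 bases, TTTC, 3.46% of all symbols), 4 of 42 for TTCNNNGAA (STAT, 8.13%) and 6 of 42 for TGANTCA (AP-1, 7.82%). The NF-kB motif was found in 5 of the 36 matched members that were also tested. All 5 rose on day 14, when 31 of all 49 tested members did. Cxcl1, Cxcl2 and Cxcl3 among them are close neighbours on chromosome 5. Whether the motif has a part in the rise was not tested. A match is a description of these letters and shows no binding.

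Cxcl1 (KC), a main CXCR2 ligand of the mouse, measured 0.395 to 1.34 CPM (0.593) in CTRL mice, 1.39 to 3.69 (2.59) on day 7 and 1.06 to 2.59 (1.899) on day 14, with later ranges of 0.3598 to 3.28 (1.52) on day 21, 0.2798 to 6.004 (1.15) on day 28, 0.201 to 3.19 (1.24) on day 35 and 0.686 to 5.73 (2.28) on day 42. All 10 day 7 mice lay above every CTRL mouse (log2FC 1.81 ± 0.37, edgeR adjusted p = 4.57e-05), and on later days the ranges met. Cxcl5, which is made by epithelium, measured 0 to 0.475 CPM (0.201) in CTRL mice, 0.555 to 5.81 (0.936) on day 7 and 0.205 to 1.7998 (0.829) on day 14, then 0.167 to 3.18 (0.554) on day 21, 0.101 to 1.498 (0.605) on day 28, 0.168 to 1.06 (0.554) on day 35 and 0.375 to 2.86 (1.35) on day 42. Its log2FC was 2.66 ± 0.49 on day 7 and 2.75 ± 0.52 on day 42, so both ends of the course carried the largest differences. Cxcl3 lay at 0 to 0.477 CPM (0.116) in CTRL mice, 0.3697 to 1.58 (0.669) on day 7 and 0.168 to 2.096 (0.524) on day 14, then at 0.236 to 0.965 (0.449) on day 21, 0.101 to 1.25 (0.504) on day 28, 0 to 1.03 (0.338) on day 35 and 0 to 3.56 (0.604) on day 42, with 0 to 6 counts in a CTRL mouse. The fit gave Cxcl3 log2FC 2.16 ± 0.50, edgeR adjusted p = 3.18e-04 on day 7 and 2.50 ± 0.53 on day 42. Cxcl2, a close relative, moved from a median of 0.272 CPM in CTRL mice to 0.6603, 1.102 and 0.949 on days 7, 14 and 42. Day 42 replicate 1 had the highest Cxcl1 and Cxcl3 of its group.

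The abundant Cxcl15 followed another course. It ranged over 588 to 1198 CPM (934) in CTRL mice, 1134 to 1831 (1321) on day 7 and 469 to 1686 (1012) on day 14, then 886 to 1967 (1424) on day 21, 902 to 2113 (1502) on day 28, 1100.1 to 2116 (1723) on day 35 and 1614 to 1919 (1746) on day 42. By day 42 all 7 mice lay above every CTRL mouse (log2FC 0.97 ± 0.18, edgeR adjusted p = 2.64e-05), while day 14 gave a log2FC of 0.13 ± 0.16 that was not called (edgeR adjusted p = 0.47). Day 14 was lower than day 7 (log2FC -0.48 ± 0.15, edgeR adjusted p = 0.0219) and day 42 was higher than day 14 (log2FC 0.84 ± 0.17, edgeR adjusted p = 8.35e-05). AT2 cell markers, which include the surfactant genes, fell in 4 of 6 on day 14 and in 0 of 6 on days 7 and 42. On each of days 7 and 42, 1 of 6 rose. The part of these markers in the result was not tested. Of the receptors, Cxcr1 measured 0 to 1.71 CPM (0.381) in CTRL mice, 0.568 to 2.59 (1.19) on day 7 and 0.189 to 2.79 (0.839) on day 14, then 0.375 to 4.58 (1.51) on day 21, 0.0998 to 3.65 (1.18) on day 28, 0.282 to 4.702 (1.51) on day 35 and 0.858 to 7.68 (3.46) on day 42. It was higher than CTRL on every day, most on day 42 (log2FC 2.85 ± 0.54, edgeR adjusted p = 6.21e-05), where 5 of 7 mice exceeded all CTRL mice. Cxcr2, the receptor that all 4 inducible ligands share, measured 1.69 to 7.71 CPM (5.78) in CTRL mice, 3.58 to 9.94 (4.796) on day 7 and 2.79 to 20.4 (5.46) on day 14, then 3.65 to 10.9 (6.39) on day 21, 3.89 to 8.78 (5.02) on day 28, 1.87 to 8.07 (5.23) on day 35 and 4.78 to 10.8 (6.55) on day 42. It passed the threshold on no day, with log2FC from -0.14 on day 7 to 0.37 on day 42. Ligands thus rose without a called change of this receptor in the same lobes. Neutrophil markers summed to 36.4 to 104 (70.6) CPM in CTRL mice, 43.9 to 113 (59.5) on day 7 and 38.2 to 577 (77.7) on day 14, and 1 of 6 tested markers rose on day 7, 4 on day 14 and 1 on day 42. Their part in the changes of the class was not tested. Cxcr1 was not called on day 14 without the 3 mice highest in Ccl28, without CTRL replicate 9 or without a low-count filter, nor on days 7, 14, 28 and 35 with replicates 1 to 7 only. Cxcl1 and Cxcl5 lost their day 35 calls without that filter or with replicates 1 to 7 only, Cxcl1 also without CTRL replicate 9. With replicates 1 to 7 only, Cxcl15 on day 21, Cxcl2 on days 21, 28 and 42 and Cxcl3 on day 21 were not called either. Several of these genes sit so low that fits of only 2 groups filtered them out.

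Genes of monocyte and macrophage recruitment formed the largest class, with 14 members and 13 tested. On each of days 7, 14, 21 and 28, 10 rose and 1 fell, and on days 35 and 42, 9 rose and 1 fell. Their median log2FC was 1.86 on day 14. The receptors Ccr1, Ccr2 and Cx3cr1 rose on every day, and Cx3cl1 was the member that fell. Ccl2 (MCP-1), the chief CCR2 ligand, measured 0.286 to 1.15 CPM (0.783) in CTRL mice, 6.53 to 18.6 (11.5) on day 7 and 2.83 to 36.5 (9.41) on day 14, then 2.61 to 28.8 (3.57) on day 21, 0.674 to 17.4 (2.34) on day 28, 0.751 to 4.68 (2.43) on day 35 and 1.03 to 12.7 (2.24) on day 42. All mice of days 7 and 14 were above all CTRL mice, and by day 42 6 of 7 were. Its rise was the largest of all members on day 14 (log2FC 4.29 ± 0.58, edgeR adjusted p = 2.31e-09, 19.5-fold), and the fitted value was 3.99 ± 0.59 on day 7 and 2.42 ± 0.64 on day 42. Ccl7 (MCP-3), its neighbour on chromosome 11, measured 0.209 to 1.43 CPM (0.938) in CTRL mice, 3.84 to 14.2 (7.44) on day 7 and 2.22 to 15.1 (7.098) on day 14, then 1.71 to 18.1 (2.84) on day 21, 0.712 to 9.48 (1.95) on day 28, 0.849 to 3.44 (1.87) on day 35 and 0.772 to 9.88 (1.87) on day 42. The groups of days 7, 14 and 21 did not overlap CTRL (log2FC 3.35 ± 0.48, edgeR adjusted p = 5.04e-08 on day 7). Ccl12 (MCP-5), a further CCR2 ligand, had medians of 0.806 CPM in CTRL mice, 5.42, 6.901 and 2.17 on days 7, 14 and 42, and was called on every day but day 42 (log2FC 1.12 ± 0.44).

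Ccl6 and Ccl9, ligands of CCR1 that macrophages make constitutively in rodents, reached much higher levels. Ccl6 measured 89.9 to 128 CPM (104) in CTRL mice, 237 to 330.5 (307) on day 7 and 322 to 464 (373) on day 14, then 289.5 to 569 (411) on day 21, 169.9 to 564 (284) on day 28, 166 to 536 (302) on day 35 and 177 to 652 (429) on day 42. It was above all CTRL mice in every BLEO-IPF mouse of every day, and its log2FC was as high on day 42 (log2FC 2.10 ± 0.19, edgeR adjusted p = 3.32e-13) as on day 21 (2.02 ± 0.18). Ccl9 measured 8.35 to 17.03 CPM (13.02) in CTRL mice, 39.5 to 68.6 (55.97) on day 7 and 51.3 to 203 (94.1) on day 14, then 39.3 to 105 (68.7) on day 21, 24.5 to 97.5 (42.2) on day 28, 18.3 to 86.9 (38.2) on day 35 and 15.9 to 67.1 (42.3) on day 42. No BLEO-IPF mouse of days 7 to 35 reached down into the CTRL range, and the rise peaked on day 14 (log2FC 2.97 ± 0.24, edgeR adjusted p = 1.68e-16). Ccl3 (MIP-1 alpha) rose on 5 days, with a log2FC of 1.20 ± 0.30 on day 14 and 0.64 ± 0.31 on day 35, where it was not called. Ccl4 (MIP-1 beta) and Ccl5 (RANTES) were called on no day, with log2FC on day 14 of 0.19 ± 0.27 and -0.33 ± 0.19. Ccl3, Ccl4, Ccl5, Ccl6 and Ccl9 share 1 stretch of chromosome 11 (83525778 to 83664683), of which 3 rose on day 14.

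The receptors Ccr2, Ccr1 and Cx3cr1 all rose on every day, but their courses differed. The largest log2FC fell on day 7 for Ccr2, day 14 for Ccr1 and day 21 for Cx3cr1. Ccr2, which brings inflammatory monocytes out of bone marrow, measured 40.2 to 76.6 CPM (51.7) in CTRL mice, 70.2 to 136 (109.9) on day 7 and 31.7 to 164 (106) on day 14, then 57.3 to 123 (81.9) on day 21, 54.7 to 100.04 (75.7) on day 28, 53.5 to 131 (82.5) on day 35 and 67.2 to 90.7 (76.3) on day 42, with 9 of 10 day 7 mice above all CTRL mice (log2FC 0.95 ± 0.16, edgeR adjusted p = 2.51e-06). Ccr1 measured 5.78 to 9.65 CPM (8.15) in CTRL mice, 20.3 to 32.6 (29.5) on day 7 and 20.3 to 102 (40.9) on day 14, then 15.1 to 58.3 (27.1) on day 21, 10.7 to 52.6 (20.05) on day 28, 10.8 to 30.5 (18.001) on day 35 and 9.26 to 28.3 (17.2) on day 42. All mice of days 7 to 35 lay above the whole CTRL range in Ccr1 (log2FC 2.60 ± 0.27, edgeR adjusted p = 1.09e-12 on day 14). Cx3cr1, the fractalkine receptor of patrolling monocytes and tissue macrophages, measured 15.1 to 31.5 CPM (20.4) in CTRL mice, 20.2 to 49.1 (31.9) on day 7 and 7.39 to 59.96 (40.3) on day 14, then 33.5 to 54.2 (43.1) on day 21, 25.3 to 58.3 (37.8) on day 28, 25.02 to 61.2 (44.4) on day 35 and 29.1 to 40.4 (34.4) on day 42. Its log2FC was 0.58 ± 0.19 on day 7 and 1.03 ± 0.18 on day 21, the only day without overlap with CTRL. The ligand of that receptor went the other way. Cx3cl1 (fractalkine, made by endothelium and epithelium and held on the membrane) measured 57.9 to 82.4 CPM (62.8) in CTRL mice, 34.05 to 55.1 (40.5) on day 7 and 27.6 to 49.8 (38.9) on day 14, then 33.2 to 52.8 (43.01) on day 21, 28.4 to 62.3 (40.4) on day 28, 29.6 to 55.3 (45.8) on day 35 and 35.9 to 60.05 (47.3) on day 42. All day 7 and day 14 mice lay below all CTRL mice, and the fall was log2FC -0.79 ± 0.10, edgeR adjusted p = 4.45e-10 on day 14 and log2FC -0.43 ± 0.12, edgeR adjusted p = 0.00498 on day 42. Endothelial markers fell in 4 of 5 on days 7 and 14 and in 2 of 5 on day 42. On day 14 the other 1 of 5 rose. The part of these markers in the fall of Cx3cl1 was not tested.

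Monocyte-derived macrophage markers moved with the class. Their summed CPM was 676 to 849.7 (748) in CTRL mice, 1015 to 2037 (1351) on day 7, 1836 to 8462 (3019) on day 14 and 988 to 2216 (1342) on day 42, and 8, 9 and 8 of 10 rose on those days. No CTRL mouse reached the lowest BLEO-IPF mouse of these days in that sum, and its part in the rise of ligands and receptors was not tested. Ccr2 was not called on day 42 without the 3 mice highest in Ccl28, with replicates 1 to 7 only, without a low-count filter or with library size as the only scaling, Cx3cr1 on day 7 with replicates 1 to 7 only, and Ccl2 and Ccl7 on day 35 without a filter on low counts or with replicates 1 to 7 only. The plot of 9 rising genes shows each mouse.

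**Figure D3:**
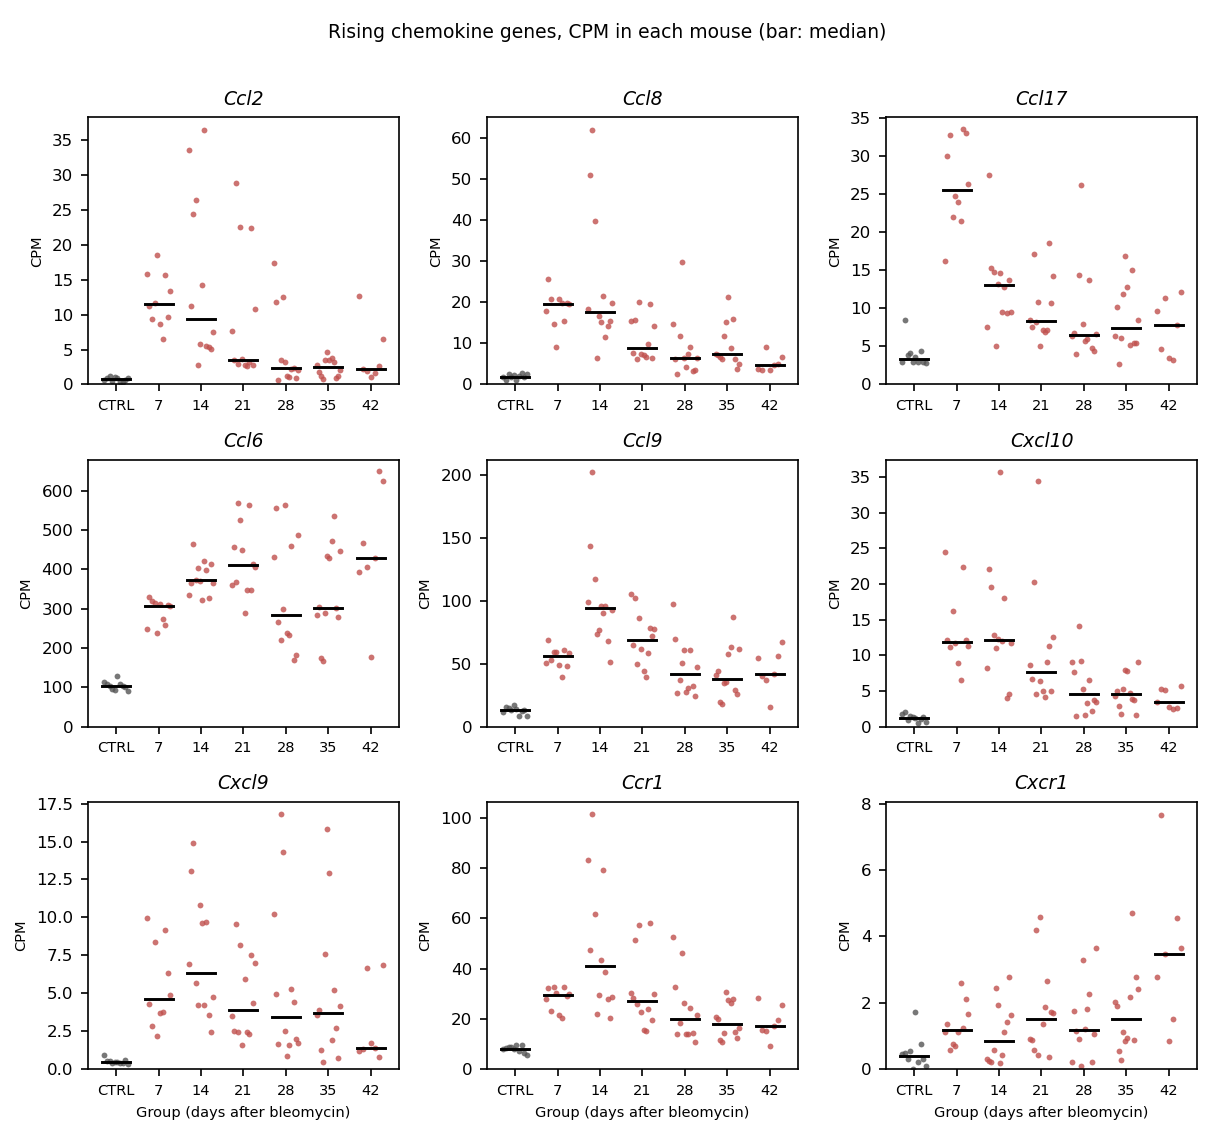
CPM of Ccl2, Ccl8, Ccl17, Ccl6, Ccl9, Cxcl10, Cxcl9, Ccr1 and Cxcr1 in each mouse (points) by group, with the median as a bar, on linear axes from 0. For Ccl2, day 7 mice lie from 6.53 to 18.6 CPM and CTRL mice from 0.286 to 1.15, and the day 42 median stays above the CTRL median.

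Ligands of activated T and NK cells rose strongly while their receptors did so late. Of the 5 genes, 3 rose on each of days 7, 14, 21 and 42, 4 on day 28 and 5 on day 35. Cxcl9 and Cxcl10, interferon-induced ligands of CXCR3, are neighbours on chromosome 5 (92321347 to 92348889). The 250 bases before Cxcl10 (minus strand, chr5:92348890-92349139, RefSeq on GRCm38.p6) are printed because they hold the interferon response element, here on the opposite strand and in capitals. It starts 213 bases before the gene.
Cxcl10: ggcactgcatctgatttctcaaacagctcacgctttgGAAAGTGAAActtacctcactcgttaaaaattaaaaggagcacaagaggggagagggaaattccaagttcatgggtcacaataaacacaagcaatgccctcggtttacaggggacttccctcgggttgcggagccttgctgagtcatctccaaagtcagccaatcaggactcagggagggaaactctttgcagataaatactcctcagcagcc

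Cxcl10 measured 0.511 to 2.07 CPM (1.297) in CTRL mice, 6.62 to 24.5 (11.9) on day 7 and 3.996 to 35.7 (12.2) on day 14, then 4.16 to 34.5 (7.701) on day 21, 1.44 to 14.2 (4.56) on day 28, 1.595 to 9.15 (4.54) on day 35 and 2.53 to 5.69 (3.46) on day 42. Every mouse of days 7, 14, 21 and 42 was above every CTRL mouse (log2FC 3.50 ± 0.39, edgeR adjusted p = 8.72e-12 on day 14). Its exons overlap Art3 on the other strand, which fell by 0.55 on the log2 scale on day 14, the opposite direction. Cxcl9 measured 0.355 to 0.899 CPM (0.475) in CTRL mice, 2.199 to 9.97 (4.59) on day 7 and 2.46 to 14.9 (6.32) on day 14, then 1.56 to 9.55 (3.899) on day 21, 0.839 to 16.8 (3.46) on day 28, 0.4696 to 15.8 (3.73) on day 35 and 0.794 to 6.85 (1.41) on day 42. It rose most on day 14 (log2FC 3.86 ± 0.54, edgeR adjusted p = 6.20e-09, 14.5-fold) and stayed at a log2FC of 3.28 ± 0.54 on day 35. Cxcl16, the membrane-bound CXCR6 ligand of macrophages, measured 67.3 to 87.1 CPM (75.01) in CTRL mice, 113 to 153 (134) on day 7 and 134 to 233 (159.6) on day 14, then 113 to 184 (141) on day 21, 73.5 to 179 (133) on day 28, 96.9 to 146 (122) on day 35 and 93.8 to 135 (118) on day 42. Only day 28 overlapped CTRL, through replicate 10 alone (73.5 CPM), since the other 11 mice of that day had at least 88.7 CPM. The day 14 rise was log2FC 1.14 ± 0.11, edgeR adjusted p = 3.20e-14. Zmynd15, which overlaps Cxcl16 on the other strand, rose too (log2FC 0.70 on day 14), at a mean of 12.5 CPM against 127.5 for Cxcl16. Without a stated use of strand, reads of the exon bases that this pair shares cannot be told apart. The receptors gave smaller values. Cxcr6 measured 2.97 to 6.36 CPM (4.99) in CTRL mice, 2.199 to 6.16 (3.69) on day 7 and 0.672 to 8.999 (4.19) on day 14, then 2.66 to 6.77 (4.85) on day 21, 3.31 to 8.99 (6.11) on day 28, 3.95 to 13.4 (6.73) on day 35 and 3.17 to 7.14 (5.75) on day 42, and was called on day 35 only (log2FC 0.60 ± 0.22, edgeR adjusted p = 0.032). Cxcr3 was called on days 28 (log2FC 0.63 ± 0.22) and 35 (0.96 ± 0.22), from a CTRL median of 2.49 CPM to 4.397 on day 35. NK cell markers fell in 6 of 6 on each of days 7, 14, 28 and 42, with summed CPM of 32.6 to 60.9 (43.6) in CTRL mice and 2.35 to 28.1 (19.1) on day 14, and T cell markers fell in 2 of 8 on day 14. Their part in the receptors' values was not tested. Cxcr6 lost its day 35 call without a low-count filter and Cxcr3 its day 28 call with replicates 1 to 7 only.

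Genes of Th2 and regulatory T cell recruitment numbered 6, with 5 tested: 4 rose on day 7, all 5 on days 14, 28 and 35, 4 on day 21 and 3 on day 42. Ccl17 (TARC) and Ccl22 (MDC), CCR4 ligands that dendritic cells and macrophages make, peaked on day 7. Ccl17 measured 2.76 to 8.43 CPM (3.299) in CTRL mice, 16.2 to 33.6 (25.6) on day 7 and 5.04 to 27.5 (13.04) on day 14, then 5.099 to 18.5 (8.37) on day 21, 4.04 to 26.3 (6.54) on day 28, 2.65 to 16.9 (7.41) on day 35 and 3.19 to 12.2 (7.84) on day 42. All day 7 mice lay above all CTRL mice (log2FC 2.75 ± 0.30, edgeR adjusted p = 2.13e-11), and day 14 was lower than day 7 (log2FC -1.05 ± 0.26, edgeR adjusted p = 0.00315). Ccl22 measured 6.83 to 11.8 CPM (8.94) in CTRL mice, 19.6 to 35.8 (27.7) on day 7 and 9.99 to 30.9 (17.9) on day 14, then 9.19 to 34.5 (15.9) on day 21, 9.44 to 21.9 (15.6) on day 28, 11.9 to 23.7 (16.7) on day 35 and 9.09 to 19.05 (16.3) on day 42, with no overlap with CTRL on days 7 and 35 (log2FC 1.69 ± 0.18, edgeR adjusted p = 6.98e-12 on day 7). Both genes flank Cx3cl1 on chromosome 8 (94745590 to 94812036), which fell on the same days. Ccl8 (MCP-2), in the mouse a ligand of CCR8, measured 1.03 to 2.67 CPM (1.91) in CTRL mice, 9.24 to 25.6 (19.6) on day 7 and 6.42 to 62.1 (17.6) on day 14, then 6.09 to 20.03 (8.81) on day 21, 2.503 to 29.9 (6.39) on day 28, 3.78 to 21.4 (7.38) on day 35 and 3.54 to 9.003 (4.78) on day 42. It overlapped CTRL on day 28 only, with its largest rise on day 14 (log2FC 3.63 ± 0.36, edgeR adjusted p = 2.40e-13, 12.4-fold). Ccr4 measured 0.102 to 0.7299 CPM (0.525) in CTRL mice, 0.352 to 1.76 (0.902) on day 7 and 0 to 2.18 (0.7895) on day 14, then 0.2504 to 1.97 (0.812) on day 21, 0.385 to 2.096 (0.867) on day 28, 0.376 to 1.98 (1.09) on day 35 and 0.298 to 0.965 (0.863) on day 42. The rise of Ccr4 was log2FC 1.18 ± 0.37, edgeR adjusted p = 0.0108 on day 35, with overlapping groups on every day. Ccr8 rose on days 14, 28 and 35 (log2FC 1.28 ± 0.41 on day 14), from at most 7 counts in a CTRL mouse. Regulatory T cell markers rose in 3 of 4 on days 7 and 14 and in 1 of 4 on day 42, Foxp3 by a log2FC of 2.77 on day 14, and their part in the rise of the class was not tested. Ccl17 lost its day 42 call without the 3 mice highest in Ccl28, without a low-count filter or with replicates 1 to 7 only. Ccr4 lost its day 7 and day 21 calls without a low-count filter or with replicates 1 to 7 only and its day 14 call without that filter, and Ccr8 its day 35 call under 5 settings and its day 28 call without the filter or without CTRL replicate 9. Ccl1, untested here for low counts, was called by DESeq2 on days 7 to 28.

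Ligands and receptors of lymphoid organisation, for B cells, naive T cells and mature dendritic cells, had 13 members but only 6 tested. Ccl20 rose on all 6 days and Cxcl13 on days 7 to 35, Cxcr5 fell on days 14 and 21, and Ccl19, Ccr6 and Ccr7 were called on no day. Cxcl13 lost its day 35 call without a low-count filter or without CTRL replicate 9, and Cxcr5 its day 21 call likewise. Cxcl13, the CXCR5 ligand that gathers B cells into follicles, measured 2.07 to 5.24 CPM (4.095) in CTRL mice, 6.74 to 41.4 (13.6) on day 7 and 5.43 to 106 (19.7) on day 14, then 4.897 to 21.3 (9.35) on day 21, 3.63 to 71.7 (8.28) on day 28, 4.87 to 16.98 (7.62) on day 35 and 6.09 to 9.86 (7.44) on day 42. Days 7, 14 and 42 did not overlap CTRL. The rise was log2FC 2.95 ± 0.43, edgeR adjusted p = 1.75e-08 on day 14, while day 42 gave a log2FC of 0.96 ± 0.48 that was not called (edgeR adjusted p = 0.13). Day 14 replicate 8 and day 28 replicate 10 held the highest Cxcl13 of their groups. A fit of day 42 and CTRL alone did call it. Its receptor Cxcr5 measured 4.799 to 14.8 CPM (12.7) in CTRL mice, 5.19 to 9.65 (6.33) on day 7 and 0.923 to 10.04 (5.72) on day 14, then 2.45 to 14.9 (6.52) on day 21, 2.21 to 24.8 (7.92) on day 28, 5.46 to 17.5 (8.94) on day 35 and 4.73 to 16.7 (8.79) on day 42. It fell on day 14 (log2FC -1.17 ± 0.30, edgeR adjusted p = 6.89e-04) and was higher on day 42 than on day 14 (log2FC 1.01 ± 0.33, edgeR adjusted p = 0.0147). B cell markers fell in 6 of 7 on days 7 and 14 and in 0 on days 28 and 42, with summed CPM of 156 to 316 (238) in CTRL mice, 40.4 to 175 (114) on day 14 and 112 to 295 (173) on day 42, and their part in the fall of Cxcr5 was not tested. Bcl9l, which overlaps Cxcr5 on the other strand, fell as well (log2FC -0.33 on day 14). Cxcl13 and Cxcr5 thus moved in opposite directions on day 14, and on day 21 as far as the call of Cxcr5 held.

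Ccl20, the epithelial ligand of CCR6, measured 0 to 0.611 CPM (0.0908) in CTRL mice, 0.384 to 1.25 (0.631) on day 7 and 0.298 to 5.29 (0.608) on day 14, then 0.208 to 1.47 (0.459) on day 21, 0.187 to 1.54 (0.492) on day 28, 0.194 to 2.53 (1.05) on day 35 and 0.172 to 1.54 (0.593) on day 42, with at most 9 counts in a CTRL mouse. It rose on every day (log2FC 2.65 ± 0.50, edgeR adjusted p = 3.05e-05 on day 35), but the day 42 call was lost without the 3 mice highest in Ccl28, without a low-count filter or with replicates 1 to 7 only, and the day 7 call with replicates 1 to 7 only. Its receptor Ccr6 was called on no day, with log2FC from -0.45 on day 7 to 0.47 on day 35. Ccr7, which leads dendritic and naive T cells to lymph nodes, measured 11.9 to 25.2 CPM (18.7) in CTRL mice, 14.3 to 25.04 (16.2) on day 7 and 8.75 to 31.9 (15.8) on day 14, then 8.99 to 24.01 (17.8) on day 21, 9.54 to 24.8 (16.9) on day 28, 11.4 to 25.5 (17.8) on day 35 and 11.8 to 24.6 (15.9) on day 42. The groups of Ccr7 overlapped on all days and its log2FC went no lower than -0.13, with changes of sign on days 7 and 42 under several settings. Ccl19, the CCR7 ligand whose main entry was tested, gave a log2FC of 0.64 ± 0.28 on day 7 and was not called. It was called on day 7 with library size as the only scaling, and on days 7 and 14 with the replicate number as a block, without day 28 replicate 10 or without CTRL replicate 9. Lymph node and follicle markers fell in 3 of 3 tested on day 14.

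Of the eosinophil attractants, one rose on day 7 and the other on no day. Ccl11 (eotaxin-1) measured 2.39 to 4.81 CPM (3.28) in CTRL mice, 6.0997 to 24.3 (9.397) on day 7 and 1.74 to 7.78 (4.12) on day 14, then 1.54 to 6.75 (4.38) on day 21, 1.07 to 15.3 (4.32) on day 28, 2.98 to 9.37 (5.59) on day 35 and 1.98 to 4.84 (3.37) on day 42. All day 7 mice lay above all CTRL mice (log2FC 1.78 ± 0.28, edgeR adjusted p = 4.33e-07), and day 14 was lower than day 7 (log2FC -1.28 ± 0.26, edgeR adjusted p = 3.88e-04) and not called against CTRL. Smaller rises on days 28 and 35 (log2FC 0.75 ± 0.28 and 0.75 ± 0.28) were not stable, since day 28 lost its call without day 28 replicate 10, in the fit of only those 2 groups and with replicates 1 to 7, and day 35 lost it without a low-count filter or with replicates 1 to 7. Ccl24 (eotaxin-2) was called on no day, with medians of 0.5798 CPM in CTRL mice and 0.515 on day 7. Eosinophil markers rose in 1 of 3 tested on each of days 7, 14 and 21. On days 28, 35 and 42, 2 of 3 rose. On each of days 14 and 21, 1 of 3 fell (Il5ra on day 14, log2FC -1.31 ± 0.41). Summed CPM of these markers was 0.636 to 3.16 (1.76) in CTRL mice and 0.646 to 2.92 (1.93) on day 7. It was 0.65 to 7.47 (1.48) on day 14 and 1.97 to 5.11 (2.66) on day 42. The part of these markers in the values of Ccl11 was not tested. Ccl11 lies with Ccl2, Ccl7, Ccl12, Ccl8 and Ccl1 within chromosome 11 from 82035571 to 82305690, and of the 5 tested genes of this stretch it was the one not called on day 14.

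The pair for cross-presenting dendritic cells split. Xcr1, their receptor, measured 2.25 to 4.91 CPM (3.95) in CTRL mice, 3.43 to 10.7 (7.76) on day 7 and 0.08395 to 10.6 (6.66) on day 14, then 4.404 to 9.71 (7.27) on day 21, 4.22 to 12.7 (7.38) on day 28, 6.63 to 13.5 (10.7) on day 35 and 6.04 to 12.3 (7.51) on day 42. It rose on every day, most on day 35 (log2FC 1.46 ± 0.25, edgeR adjusted p = 6.54e-06), where all 12 mice, as all 7 on day 42, lay above the CTRL range. On day 14 the call was lost in 3 of the alternatives (no low-count filter, only the 2 groups, replicate number as a block), and day 14 replicate 8 was the lowest mouse. Xcl1, its ligand from NK and CD8 T cells, measured 0.0955 to 0.835 CPM (0.493) in CTRL mice, 0.09599 to 0.923 (0.558) on day 7 and 0.08395 to 1.27 (0.711) on day 14, then 0.204 to 1.04 (0.596) on day 21, 0.1004 to 0.925 (0.419) on day 28, 0.08397 to 1.25 (0.495) on day 35 and 0.0937 to 0.779 (0.257) on day 42, and was called on no day against CTRL. Day 42 was lower than day 14 in Xcl1 (log2FC -1.08 ± 0.42, edgeR adjusted p = 0.0389). Dendritic cell markers rose in 3 of 6 on days 7 and 14 and in 4 on day 42, with 2 falling on day 14, and their part in the rise of Xcr1 was not tested.

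Genes of mucosal and skin homing had 6 members and 5 tested. Ccl25, the thymus and gut ligand of CCR9, measured 2.505 to 4.71 CPM (4.11) in CTRL mice, 3.74 to 6.56 (4.495) on day 7 and 2.96 to 6.46 (4.53) on day 14, then 3.61 to 6.82 (4.84) on day 21, 4.15 to 5.72 (4.67) on day 28, 2.55 to 5.41 (4.18) on day 35 and 3.55 to 4.92 (4.41) on day 42. It rose on days 7 to 28 by small amounts (log2FC 0.35 ± 0.11, edgeR adjusted p = 0.00594 on day 21) with overlapping groups. Ccl27a, the CCR10 ligand of keratinocytes, measured 1.02 to 3.36 CPM (2.13) in CTRL mice, 0.204 to 2.84 (1.66) on day 7 and 0.6498 to 2.29 (1.33) on day 14, then 0.843 to 2.86 (1.51) on day 21, 0.703 to 2.54 (2.02) on day 28, 1.46 to 2.92 (1.896) on day 35 and 1.47 to 2.94 (2.17) on day 42. It fell on days 7 and 14 (log2FC -0.73 ± 0.22, edgeR adjusted p = 0.00384 on day 14) and was higher on day 42 than on day 14 (log2FC 0.63 ± 0.25, edgeR adjusted p = 0.041). Il11ra1, which overlaps it on the other strand at a far higher level, fell on day 14 too (log2FC -0.42), and reads of the pair cannot be told apart if strand was not used. Ccr9 measured 0.954 to 6.72 CPM (1.697) in CTRL mice, 1.29 to 3.23 (2.11) on day 7 and 0.199 to 2.79 (1.38) on day 14, then 1.04 to 3.101 (1.55) on day 21, 1.44 to 5.04 (2.21) on day 28, 1.36 to 3.22 (2.26) on day 35 and 1.12 to 3.28 (2.25) on day 42, with a called fall on day 14 only (log2FC -0.81 ± 0.26, edgeR adjusted p = 0.00525), which replicates 1 to 7 alone did not call. CTRL replicate 9 held both the highest Ccr9 and the highest thymus marker sum of all CTRL mice, and without it the day 14 value was -0.53 ± 0.25 (edgeR adjusted p = 0.0612) and not called. Ccr10 rose on days 21, 28 and 35 (log2FC 1.89 ± 0.54 on day 28) at a median of 0.468 CPM there. Ccl25 lost its day 7 call without a low-count filter or with replicates 1 to 7 only and its day 14 call with the latter. Ccl27a lost its day 7 call under both of these, in the fit of only 2 groups and without CTRL replicate 9, and Ccr10 its day 21 call without the filter.

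Ccl28, a mucosal ligand of CCR10 and CCR3 named after its values were seen, rested on 3 mice. It measured 0.267 to 1.33 CPM (0.634) in CTRL mice, 0.242 to 1.33 (0.896) on day 7 and 0.341 to 16.6 (0.959) on day 14, then 0.163 to 1.22 (0.609) on day 21, 0.202 to 1.29 (0.659) on day 28, 0.4198 to 21.4 (0.907) on day 35 and 0.345 to 20.8 (1.19) on day 42. Day 14 replicate 11 had 16.6 CPM (202 counts), day 35 replicate 12 had 21.4 (257 counts) and day 42 replicate 7 had 20.8 (216 counts), while the other 72 mice lay between 0.163 and 2.72 CPM. With all mice Ccl28 was called on days 14, 35 and 42, with log2FC of 1.76 ± 0.63, 1.89 ± 0.62 and 2.39 ± 0.68. Without these 3 mice the log2FC were 0.66, 0.40 and 0.43, none of them called (edgeR adjusted p = 0.070, 0.39 and 0.46). The gene next to it, Tmem267 (chromosome 13, 119488039 to 119611059; Ccl28 at 119623819 to 119654359), was high in the same 3 mice, at 26.8, 31.4 and 23.8 CPM in the order above, against 1.98 to 10.5 in the other 72. Of all 16221 tested genes, these 2 were the only ones in which the 3 mice lay above the other 72, and in 0 genes did they lie below. Paip1, Hmgcs1 and Zfp131 on either side lay within the range of the other mice. These 3 mice belong to 3 different days, so the pattern does not follow a day.

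**Figure D4:**
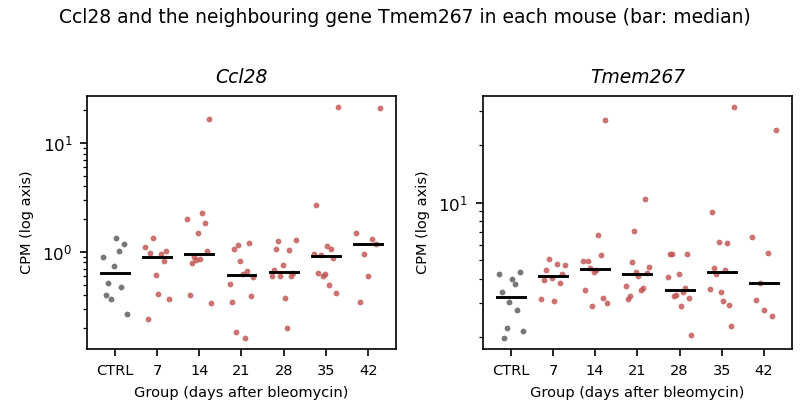
CPM of Ccl28 and of the neighbouring gene Tmem267 in each mouse (points) by group, with the median as a bar, on logarithmic axes. In both panels 1 mouse each of days 14, 35 and 42 stands apart, at 16.6 to 21.4 CPM of Ccl28, and the other 72 mice stay at or below 2.72.

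Chemokines with broad or unsettled targets had 4 tested members of 6. Cxcl12 (SDF-1), made by stroma and endothelium, measured 212 to 319 CPM (257) in CTRL mice, 159 to 402 (261) on day 7 and 239 to 626 (398) on day 14, then 283 to 675 (421) on day 21, 245 to 822 (375) on day 28, 279 to 587 (356) on day 35 and 315 to 622 (415) on day 42. It was not called on day 7 (log2FC -0.01 ± 0.18), rose from day 14 on (log2FC 0.78 ± 0.18, edgeR adjusted p = 1.52e-04 on day 21) and was higher on day 14 than on day 7 (log2FC 0.65 ± 0.18, edgeR adjusted p = 0.00727). Its receptor Cxcr4, present on most leukocytes, measured 57.8 to 80.9 CPM (64.96) in CTRL mice, 36.3 to 70.2 (47.98) on day 7 and 25.05 to 59.7 (48.3) on day 14, then 32.9 to 56.8 (51.6) on day 21, 37.5 to 74.8 (48.6) on day 28, 44.3 to 65.4 (53.98) on day 35 and 43.9 to 64.9 (51.98) on day 42. It fell on days 7 to 35 (log2FC -0.51 ± 0.11, edgeR adjusted p = 2.83e-05 on day 14), with no overlap with CTRL on day 21, and day 42 (log2FC -0.29 ± 0.12) was not called (edgeR adjusted p = 0.0665). The fall of Cxcr4 lost its day 28 call with replicates 1 to 7 only and its day 35 call with these or without a low-count filter. Ligand and receptor thus moved in opposite directions on days 14 and 21, and on days 28 and 35 as far as those calls held. Fibroblast markers rose in 4 of 5 on day 14 and in 0 on day 42, and their part in the rise of Cxcl12 was not tested. Cxcl14, a ligand of epithelium and fibroblasts, rose on days 7, 14 and 21 (log2FC 0.72 ± 0.15 on day 14) from a CTRL median of 165 CPM. On day 35 Cxcl14 was not called (log2FC -0.26), but a fit of day 35 and CTRL alone called it lower. Cxcl17, a mucosal ligand, was highest on day 7 with a median of 48.6 CPM against 22.7 in CTRL mice (log2FC 1.21 ± 0.14), when all mice lay above the CTRL range. Falling and late-rising genes are shown by mouse in the plot of 6 such genes.

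**Figure D5:**
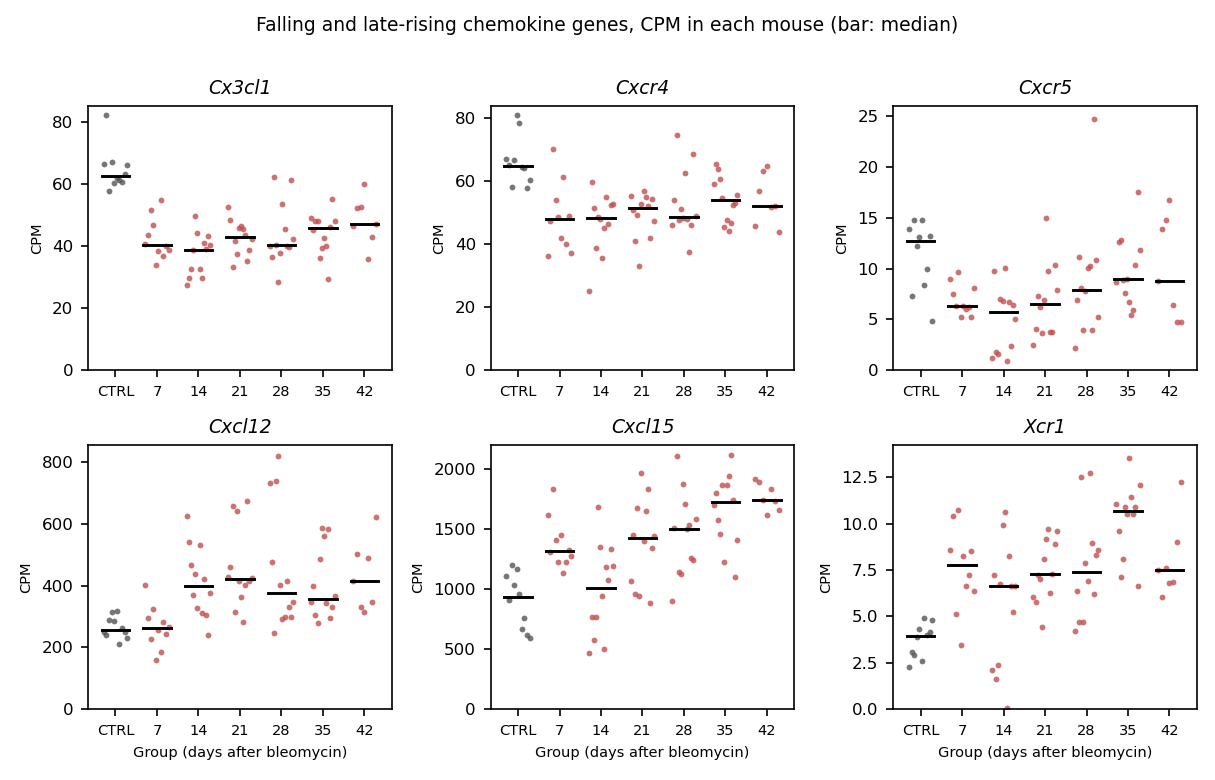
CPM of Cx3cl1, Cxcr4, Cxcr5, Cxcl12, Cxcl15 and Xcr1 in each mouse (points) by group, with the median as a bar, on linear axes from 0. Cx3cl1 drops from a median of 62.8 CPM in CTRL mice to 40.5 on day 7, and Cxcl15 dips to 1012 on day 14 before reaching 1746 on day 42.

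Days were also compared with each other directly. From day 7 to day 14, 5 members were higher and 5 lower, where 9.48% and 7.55% of all genes were. Both counts, out of 49 tested members, lie near these shares. Among the higher ones were Ccl9, Ccr1, Cxcl12 and Cxcl16 (Ccl9 0.87 ± 0.22, Ccr1 0.79 ± 0.25 on the log2 scale). Ccl11, Ccl17, Ccl22, Cxcl15 and Cxcl17 were lower. From day 14 to day 42, 5 members were higher and 15 lower, where 15.2% and 18.8% of all genes were. The largest decreases were in Ccl8 (-2.23 ± 0.38), Cxcl13 (-1.99 ± 0.46), Ccl2 (-1.87 ± 0.54) and Cxcl10 (-1.86 ± 0.39). Of the 31 members up on day 14, 13 were lower on day 42 than on day 14, and 24 were still above CTRL on day 42. These 31 were picked by their day 14 values, which favours a later decrease. The same shares among all genes up on day 14 were not counted. Higher on day 42 were Cxcr1 (1.64 ± 0.47), Cxcr5, Cxcl15, Ccl27a and Cx3cl1. The monocyte and macrophage class had 6 lower and 1 higher in this comparison, and the neutrophil class 2 higher and none lower. Between days 14 and 7 the call of Cxcl15 was lost without day 14 replicate 8 or with only the 2 groups, that of Cxcl16 without a low-count filter or with library size as the only scaling, and those of Ccl17 and Ccl22 with replicates 1 to 7 only. Between days 42 and 14 the call of Ccl17 was lost under 6 settings, that of Ccl27a without day 14 replicate 8, without the filter or with only the 2 groups, that of Cxcr5 with only the 2 groups or replicates 1 to 7, and that of Xcl1 without the filter.

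Position followed these groups only in part. Of the receptor genes that lie together on chromosome 9, Ccr1, Ccr2 and Xcr1 rose on day 14, Ccr9 fell and Cxcr6 was not called. On chromosome 1 (74153989 to 74194631), Cxcr1 rose and Cxcr2 did not pass the test on day 14. In the chromosome 5 stretch, 4 of 5 neutrophil ligands rose on day 14 and Cxcl15 was the exception.

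Chemokine genes outside the naming rule moved both ways. Of 11 such genes, 4 rose and 4 fell on day 7, 4 rose and 5 fell on day 14, and 1 rose and 2 fell on day 42. Genes at large also moved both ways on days 7, 14 and 42. Of all tested genes, 24.8, 32.4 and 13.7% were higher and 21, 29.9 and 11% lower on these days. Ackr1, the decoy receptor of venules and red cells, rose by 4.96 ± 0.60, edgeR adjusted p = 1.14e-10 on day 14. Ackr3, the CXCL12 scavenger, rose (1.15 ± 0.19, edgeR adjusted p = 3.56e-07) and Ackr4, the scavenger of CCL19, CCL21 and CCL25, fell (-2.73 ± 0.40, edgeR adjusted p = 1.80e-08). Dpp4, a protease that trims chemokines, fell (-0.94 ± 0.16, edgeR adjusted p = 1.16e-06), as did the platelet chemokine Ppbp (-1.39 ± 0.29, edgeR adjusted p = 3.47e-05), while platelet factor Pf4 was not called. Of 15 genes of receptor signaling, 7, 9 and 3 rose on days 7, 14 and 42, and 1 fell on each of these days. The 3 of day 42 lie near the share of all genes that were higher on that day (13.7%). Rgs1, which dampens receptor signals in lymphocytes, rose (1.88 ± 0.26, edgeR adjusted p = 4.70e-09), as did the PI3K-gamma adaptor Pik3r5 (1.16 ± 0.15, edgeR adjusted p = 3.24e-10), and Elmo1, a Rac activator with Dock2, fell (-0.42 ± 0.08, edgeR adjusted p = 3.50e-06).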

How the data were processed

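The authors purified RNA of the inferior lobe, prepared stranded NEBNext Ultra II Directional libraries, sequenced them single-end on a NextSeq 500 and aligned reads with STAR 2.7.0f to GRCm38 with Ensembl release 96. They deposited raw read counts per gene without normalization. The counting program, its use of strand and its treatment of reads with several places are not given in the sources used here. Each of the 75 columns was matched to its mouse by library name, and the annotation held every one of the 55536 identifiers. Counts were tested in R 4.3.3 with edgeR 4.0.16 (quasi-likelihood F test, TMM factors, filterByExpr, 1 mean per group, Benjamini-Hochberg over 16221 genes, threshold 0.05). The error given with a log2FC is its fitted standard error. Summaries, promoter searches and figures used Python 3.11.15, and steps were tested on simulated counts.

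Members, target classes, lists and tests were chosen with earlier results of these data known. Members named with values in every group are the ligand and the receptor with the highest mean CPM in each target class, the 3 largest rises and the 3 largest falls among those called on days 7, 14 and 42, and members called on all 6 days. Ccl28 was added after its values were seen. Values of 1 tested member are not reported here; it enters the counts but no figure. Alternatives were DESeq2 1.42.0, library size or upper quartile scaling, no filter, 10 or more counts required in all mice, the 2 compared groups fitted alone, a block for replicate number, replicates 1 to 7, and an absolute log2FC of at least 0.5. The 4 refits without libraries that stood apart (day 28 replicate 10, day 14 replicate 8, CTRL replicate 9 and the 3 mice highest in Ccl28) were chosen after seeing the data. No 2 libraries of a group were alike within sampling noise (lowest chi-square per degree of freedom 4.13 over 375 pairs). Nothing in the labels pairs mice across groups.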

Additional observations from a re-analysis of the deposited data

Results flagged for a closer look

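In 105 groups tested for a mouse far from the others (the CTRL, day 7 and day 42 groups of the 35 named members), 10 had such a mouse. The nominal rate of the check is about 1 group in 20. That rate need not hold for genes with few counts, and all 10 were highest values, so no excess over chance was read from it. Day 42 replicate 1 stood high in 3 genes, with 9.88 CPM of Ccl7, 5.73 of Cxcl1 and 3.56 of Cxcl3. Day 7 replicate 5 stood high in Cxcl5 (5.81 CPM) and in the receptor of that ligand, Cxcr2 (9.94 CPM), and held the highest neutrophil marker sum of its group (113 CPM). CTRL replicate 2 stood high in Ccl17 (8.43 CPM) and Cx3cl1 (82.4 CPM). The others were Cxcl9 in CTRL replicate 1 (0.899 CPM), Cxcr1 in CTRL replicate 6 (1.71 CPM) and Xcl1 in day 42 replicate 3 (0.779 CPM).

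The effect of bleomycin also differed between days, by the tests of the difference itself. Between day 14 and day 7 the log2FC was -1.28 for Ccl11, -1.05 for Ccl17, -0.65 for Ccl22 and -0.48 for Cxcl15, which were lower on day 14, and 0.87 for Ccl9, 0.79 for Ccr1, 0.65 for Cxcl12 and 0.31 for Cxcl16, which were higher. Between day 42 and day 14 the decreases included Ccl8 -2.23, Cxcl13 -1.99, Ccl2 -1.87, Cxcl10 -1.86, Cxcl9 -1.39, Ccr1 -1.38, Ccl7 -1.34, Ccl9 -1.17, Xcl1 -1.08, Ccl17 -0.78 and Cxcl16 -0.54. The increases were Cxcr1 1.64, Cxcr5 1.01, Cxcl15 0.84, Ccl27a 0.63 and Cx3cl1 0.37. Day 14 replicate 8 and the 3 mice highest in Ccl28 take part in these differences.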

How the results depend on the processing

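The numbers of members called in each comparison stayed within 1.5 times the main count under all alternatives but 1. Requiring at least 10 counts in every mouse left 24 members to test, and called members were then 18, 18, 19, 18, 18 and 13 on the 6 days from day 7 to day 42 and 11 for day 42 against day 14, since the low inducible ligands Ccl2, Ccl7, Cxcl1, Cxcl9 and Cxcl10 were no longer tested. Over all alternatives the counts ranged from 18 to 34, 18 to 37, 19 to 35, 18 to 35, 18 to 33 and 13 to 27 on these days, 8 to 11 for day 14 against day 7 and 11 to 21 for day 42 against day 14. In fits of only the 2 groups compared, Cxcl2, Cxcl3, Cxcl5, Cxcr1, Ccr4 and Ccl20 fell under the low-count filter on most days and were not tested. DESeq2 kept every call but those of Ccl28 and Ccr8 on day 35.

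Named members changed the sign of their log2FC in 41 cases, and 0 of these were called in the reported fit or under the alternative. With library size as the only scaling these were Ccr7 (0.0089) and Cxcl12 (0.0086) on day 7, Ccr7 on day 42 (0.0074) and Ccl25 for day 14 against day 7 (-0.0289), and upper quartile factors gave -0.0215 for the last. Ccr7 on day 42 was also 0.0094 without a filter and 0.0088 with only the 2 groups. Replicates 1 to 7 gave Ccr9 0.0938, 0.3786, 0.2734 and 0.0759 on days 7, 28, 35 and 42, Cxcl15 -0.1084 and Cxcr6 0.0768 on day 14, Cxcr6 -0.0283 on day 21, and Ccl27a 0.0199 on day 35 and 0.0281 on day 42. For day 14 against day 7 they gave Ccl25 -0.0170, Ccl7 0.2227, Ccr2 0.0851 and Ccr4 0.1249, and for day 42 against day 14 Ccr7 -0.0243 and Cxcl12 -0.1103. Without day 28 replicate 10, Cxcr2 was 0.0007 on day 28 and Ccr7 0.0008 on day 42, and for day 14 against day 7 Ccl25 (0.0093), Ccr2 (-0.0627) and Ccr4 (-0.0413) kept their sign, as did Xcl1 on day 28 (0.0444). Without day 14 replicate 8, Ccr7 was 0.0007 on day 42, and for day 14 against day 7 Ccl25 was -0.0038, Ccr2 0.0258 and Ccr4 0.0861, while Ccr7 on day 7 (-0.0032), Ccr9 on day 28 (-0.1027) and Ccr9 on day 35 (-0.1897) kept their sign. Without CTRL replicate 9, Ccr7 was 0.0192 on day 7 and 0.0231 on day 42, Ccr9 0.1712 on day 28 and 0.0842 on day 35, and Xcl1 -0.0720 on day 28, while Cxcr2 kept its sign on day 28 (-0.0473). Without the 3 mice highest in Ccl28, Ccl11 was -0.0469 and Ccr7 0.0259 on day 42, and for day 42 against day 14 Cxcl12 was -0.0927 and Cxcr2 -0.0188.

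Mice with the same replicate number in different groups had a median correlation of 0.0066 over 204 pairs, from -0.574 to 0.602. Of these pairs 65 exceeded 0.1, as did 593 of 2196 other pairs of different groups. Library names run in order of replicate number. With so wide a spread, this check cannot exclude an effect shared by mice of the same number. With the replicate number as a block the called members numbered 34, 35, 34, 34, 32 and 27 on days 7 to 42, 10 for day 14 against day 7 and 20 for day 42 against day 14. Under the block the sign changed for Cxcr2 on day 28 (0.0787), Ccl11 on day 42 (-0.0037), Ccl7 for day 14 against day 7 (0.0166) and Cxcl12 for day 42 against day 14 (-0.0361).

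Depth limits the low genes. At 9240291 to 14665247 counts per mouse, Cxcl3 and Ccl20 rest on few counts in CTRL mice. Day 42 has the fewest mice, 7, and leans on replicate 7, without which the calls of Ccl17, Ccl20, Ccr2 and Ccl28 ended on that day (that refit also left out 1 mouse each of days 14 and 35). Later days hold only mice alive at that time. Whether strand was used in counting bears on 8 tested members with exons overlapped on the other strand, among them Cxcl16, Cxcr5 and Ccl27a. Ccl25 (mean 4.5 CPM) overlaps Elavl1 (58.2 CPM) in this way, and Ccr9 (2.1 CPM) overlaps Slc6a20a (8.2 CPM).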

Other observations

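Other cell types of the lobe moved beside the chemokine genes, and their part in the results was not tested. Club and ciliated cell markers fell in 6 of 6 on day 14 and in 2 of 6 on day 42. Of 9 alveolar macrophage markers, 3 rose and 4 fell on day 14. Plasma cell markers rose in 2 of 3 tested on days 14 and 42, with summed CPM of 222 to 292 (249.9) in CTRL mice and 277 to 604 (397) on day 42. AT1 cell markers gave 1 rise and 2 falls of 5 on day 14. Skeletal muscle markers were called higher on day 28 (3 of 3), where day 28 replicate 10 holds the top of the range.

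The 3 mice with high Ccl28 and Tmem267 had no other tested gene in common on which they left the range of the other 72. Their lowest value exceeded the highest of the other mice 6.09-fold for Ccl28 and 2.27-fold for Tmem267. A reader with the reads could look at the stretch between both genes on chromosome 13 (119611059 to 119623819) in these mice.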
